A study of Mus musculus with 2 samples.

Results

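The CC chemokines examined here are Ccl2, Ccl7, Ccl8, Ccl9, Ccl11 and Ccl19, 6 of the 31054 genes listed for both libraries, found by their symbols. Their transcripts were counted in cells with more than 1000 and fewer than 7000 detected genes and with under 8% of their unique molecular identifiers (UMIs, tags that mark single captured molecules) from mitochondrial genes. Each chemokine was then described by library and by cell class. Mesothelial cells were those with at least 10 UMIs summed over Msln, Upk3b, Krt19, Lrrn4 and Upk1b, and stromal cells were those with under 5.

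CC chemokines are small secreted proteins that draw leukocytes along a concentration gradient by binding G protein-coupled receptors of the CCR family. Atypical receptors bind chemokines without classical G protein signalling and can clear them from the tissue. In white adipose tissue, stromal progenitor cells and the mesothelium that covers the visceral depots are known sources of chemokines, and tissue macrophages are another.

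The cells came from the gonadal white adipose tissue of male mice aged 18 months with the genotype p16-CreERT2/R26-LSL-tdTomato, which had received tamoxifen injections. In these mice a tamoxifen-activated Cre expressed from the p16 gene removes a stop cassette before tdTomato. Both sorted groups thus carry the same alleles and the same treatment. The reporter marks cells in which Cre was active around the injections. CD31- CD45- cells were sorted into tdTomato-positive (Tom+) and tdTomato-negative (Tom-) cells, and 1 droplet library was made from each. The labels do not say how many mice were pooled. With 1 library per group there is no replicate check and no test between them, and what comes from the sort cannot be told apart from what comes from the preparation of each library. Levels are UMIs summed over the cells of a class per 1000000 UMIs of that class (CPM), with exact Poisson intervals. Shares and ratios carry exact Clopper-Pearson intervals. All intervals are at 95% and cover counting error only.

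The Tom+ library held 3263 stromal and 250 mesothelial cells, and the Tom- library 4800 stromal and 1887 mesothelial cells. Stromal cells had a median of 14235 UMIs in the Tom+ and 11270 in the Tom- library. Mesothelial cells had a median of 18601.5 and 14753 UMIs. Keratin 18 (Krt18), a mesothelial marker that the class rule did not use, was at 239.5 CPM in Tom+ mesothelial versus 0.724 CPM in Tom+ stromal cells, and at 346 against 2.61 CPM in the Tom- library. The reporter transcript tdTomato was found, after each cell was thinned to 5000 UMIs, in 553 of 3144 Tom+ and 287 of 4547 Tom- stromal cells, and in 163 of 250 Tom+ and 76 of 1856 Tom- mesothelial cells. The stromal class is defined only by the lack of mesothelial transcripts and so also held other cells: the 10 immune markers together were at 261 CPM in Tom+ versus 57.9 CPM in Tom- stromal cells, although CD45+ cells had been gated out. The 6 B and plasma cell markers, led by the immunoglobulin genes Igkc and Ighm, were at 59782 CPM against 14456 CPM. At least 10 UMIs of the immune or the B and plasma cell markers were held by 1769 of the 3263 Tom+ but 167 of the 4800 Tom- stromal cells. Holding 10 such UMIs does not by itself mark an immune or B cell. Only 47 Tom+ and 33 Tom- stromal cells held at least 10 immune UMIs. At least 5% of UMIs came from B and plasma cell markers in 136 Tom+ and 54 Tom- stromal cells. The part of cells with such transcripts in the differences between the libraries was not tested beyond the values given without them. Barcodes are a further limit, since 2224 were listed in both libraries. Only 9 of these belonged to a cell passing the limits in both libraries, yet 404 of the 3263 Tom+ stromal and 100 of the 250 Tom+ mesothelial cells carried a shared barcode.

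In stromal cells, Ccl2, Ccl7 and Ccl11 were all lower in the Tom+ than in the Tom- library, by 2.03-fold, 2.02-fold and 1.81-fold. Ccl8 was 4.29-fold higher in the Tom+ library, Ccl9 was 1.51-fold higher, and Ccl19 was within 1.5-fold. Thus 3 of the 6 chemokines were lower and 2 were higher by at least 1.5-fold. Of the 9778 genes that averaged 5 CPM or more here, 3.25% were lower and 3.86% were higher by that size. On the log2 scale the ratios of Tom+ over Tom- had a median of -0.56 over the 6 chemokines and 0.07 over all 9778 genes. Ccl9 was at 6.50 CPM in Tom+ but 4.30 CPM in Tom- stromal cells, so it reached a mean of 5 CPM only through the library where it was higher. Such a limit favours a call. Ccl9 only just reached 1.5-fold, and it was no longer higher by that size under 9 of the 13 other ways of counting. Its direction turned under 3 of these, at log2 ratios of -1.01 with clusters weighted equally, -0.63 without cells with at least 10 immune UMIs and -0.46 in cells limited by stromal markers. With clusters weighted equally, Ccl2 (-0.56), Ccl7 (-0.38) and Ccl11 (-0.56) also fell short of 1.5-fold. This weighting counts small clusters, among them those led by immunoglobulin genes and by Cd3g and Cd3e, as much as large ones. Without the cells whose barcode was listed in both libraries, which left 2859 Tom+ and 4725 Tom- stromal cells, the log2 ratios of Tom+ over Tom- were -0.93 for Ccl2, -0.96 for Ccl7, -0.76 for Ccl11, 1.86 for Ccl8, 0.45 for Ccl9 and -0.37 for Ccl19.

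Within each library the chemokines were mostly lower in mesothelial than in stromal cells. In the Tom- library all 6 were lower by at least 2-fold, where 9.22% of 10019 genes were lower and 11.9% were higher by that size. Ccl9 had a mean under 5 CPM there. Ccl8 and Ccl19, at 1.21 and 1.33 CPM in Tom- mesothelial cells, reached that mean only through stromal cells, which favours a call. So did Ccl19 in the Tom+ library, with 0 mesothelial UMIs. In the Tom+ library Ccl7, Ccl11 and Ccl19 were lower by at least 2-fold, Ccl8 was higher, and Ccl2 and Ccl9 were within 2-fold. The matching shares of 10240 genes in that library were 10.1% lower and 13.1% higher. The median log2 ratio of mesothelial over stromal cells over the 6 chemokines was -2.66 for Tom- and -0.98 for Tom+ cells. For the Tom+ median, Ccl19 was set at a floor of 3 UMIs. Over all genes the same medians were 0.14 and 0.11. Without shared barcodes, which left 150 Tom+ and 1680 Tom- mesothelial cells, all 6 stayed lower by at least 2-fold in the Tom- library, while in the Tom+ library 3 were lower and 0 were higher by that size, with Ccl8 at 0.91 on the log2 scale.

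**Figure D1:**
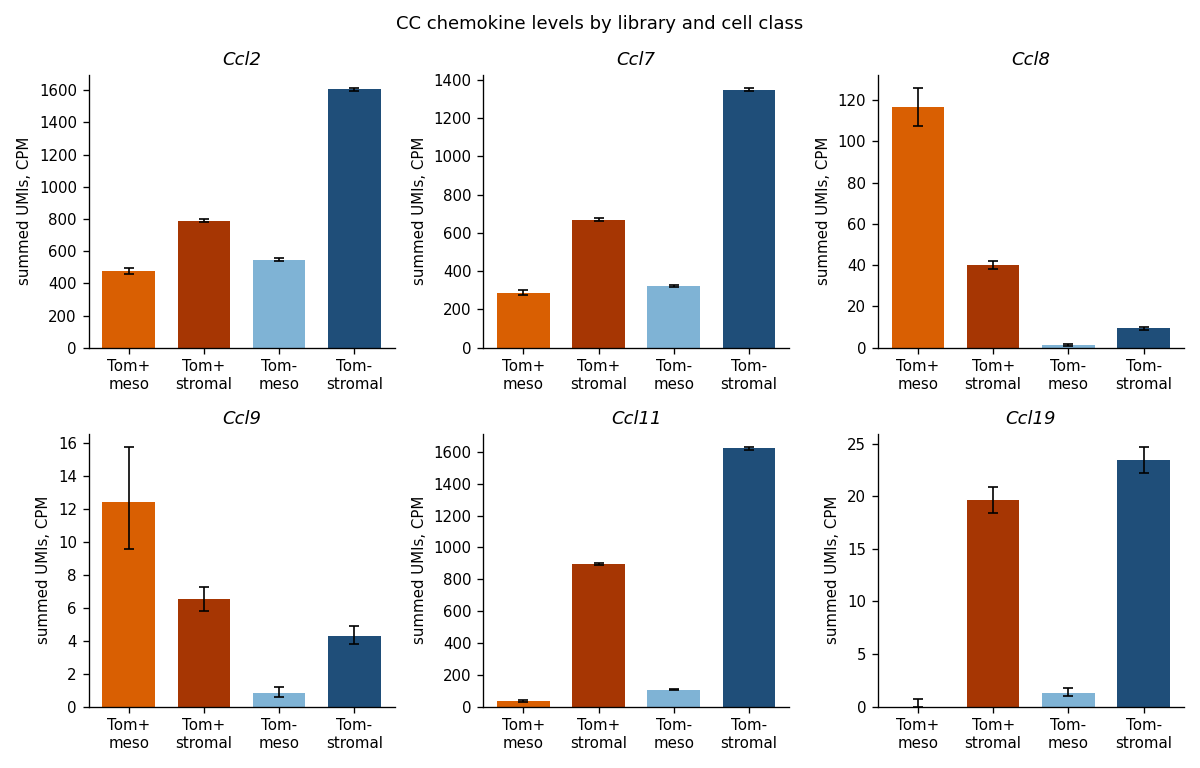
Level of each CC chemokine in CPM (vertical axis, from 0, a separate scale for each gene) in mesothelial (meso) and stromal cells of the Tom+ and Tom- libraries, 1 library per group. Bars are levels from summed UMIs and error bars are exact Poisson 95% intervals for counting error. Ccl2, Ccl7 and Ccl11 were highest in Tom- stromal cells (1604, 1348 and 1624 CPM), whereas Ccl8 and Ccl9 were highest in Tom+ mesothelial cells (116 and 12.4 CPM). Of these mesothelial UMIs, 608 of 620 for Ccl8 and 60 of 66 for Ccl9 were in 16 cells with at least 10 immune UMIs.

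Ccl2 and Ccl7 are monocyte chemoattractants that act through the receptor CCR2. Ccl2 (ENSMUSG00000035385, chr11:82035571-82037453, plus strand, GRCm38) was at 1604 CPM (1594–1614) in Tom- stromal cells versus 789 CPM (781–797) in Tom+ stromal cells. In mesothelial cells it was at 547 CPM (539–555) in the Tom- versus 475 CPM (456–493) in the Tom+ library. The libraries were thus far apart in stromal cells and closer in mesothelial cells. The log2 ratio of Tom+ over Tom- was -1.02 (-1.04 to -1.01) in stromal and -0.20 (-0.27 to -0.14) in mesothelial cells. Of the 2526 Ccl2 UMIs of Tom+ mesothelial cells, 596 were in 16 cells with at least 10 immune UMIs. Without such cells Ccl2 was at 394 CPM (376–412) in Tom+ versus 545 CPM (537–553) in Tom- mesothelial cells. Only 0.92% of the genes compared in stromal cells had a lower ratio than Ccl2.

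Ccl7 (ENSMUSG00000035373, chr11:82045712-82047525, plus strand) lies just downstream of Ccl2. It was at 1348 CPM (1338–1357) in Tom- stromal, 669 CPM (662–676) in Tom+ stromal, 323 CPM (317–330) in Tom- mesothelial and 288 CPM (273–302) in Tom+ mesothelial cells. The log2 ratio of Tom+ over Tom- was -1.01 (-1.03 to -0.99) in stromal and -0.17 (-0.25 to -0.09) in mesothelial cells. The mesothelial against stromal difference was thus wider in the Tom- library, with log2 ratios of -2.06 (-2.09 to -2.03) for Ccl7 and -1.55 (-1.58 to -1.53) for Ccl2. In the Tom+ library these were -1.22 (-1.29 to -1.14) and -0.73 (-0.79 to -0.68). Without cells with at least 10 immune UMIs, Ccl7 was at 257 CPM (243–271) in Tom+ versus 324 CPM (318–330) in Tom- mesothelial cells.

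Both genes were spread unevenly over cells, many holding none and some holding many copies. With every cell thinned to 5000 UMIs, which left out 119 Tom+ and 253 Tom- stromal cells and 31 Tom- mesothelial cells that were shallower, Ccl2 was found in 48.5% (47.0–50.0) of Tom- and 33.6% (31.9–35.3) of Tom+ stromal cells. Before thinning these shares were 60.9% and 47.9%. Stromal cells with 30 or more Ccl2 UMIs out of 5000 made up 8.80% in the Tom- and 4.48% in the Tom+ library, and the highest single cells held 636 and 524 UMIs before thinning. Hence fewer Tom+ cells carried Ccl2 and fewer of them carried it at a high level. In mesothelial cells the thinned share was 43.1% (40.8–45.4) for Tom- and 34.4% (28.5–40.6) for Tom+ cells. In the Tom+ library the share was therefore alike in both classes although the summed level was lower in mesothelial cells, where 1.20% held 30 or more UMIs.

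For Ccl7 the thinned shares were 56.4% (55.0–57.9) of Tom- stromal, 40.3% (38.5–42.0) of Tom+ stromal, 38.3% (36.04–40.5) of Tom- mesothelial and 26.0% (20.7–31.9) of Tom+ mesothelial cells. No class lacked either gene, and both were also present in barcodes with 1000 or fewer genes that were not shared between libraries. There, Ccl2 was at 774 CPM (686–871) in the Tom+ versus 627 CPM (593–662) in the Tom- library, so neither gene was limited to barcodes with many genes. How much free RNA the counts in cells hold was not tested.

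Genes that respond to tissue dissociation were measured beside both genes. The 12 such genes on the list summed to 26143 CPM in Tom+ versus 30768.5 CPM in Tom- stromal cells, a log2 ratio of -0.24. Of the 12, 11 were lower in Tom+ cells, 2 of them by at least 1.5-fold. Over all 9778 genes compared, 3.25% were lower by that size and the median log2 ratio was 0.07. Within stromal cells, the correlation of Ccl2 with the summed list was negative, at r = -0.09 over 3263 Tom+ cells and -0.22 over 4800 Tom- cells, and that of Ccl7 was -0.07 and -0.16. The correlation of Ccl11 with the same list was positive, at 0.22 in either library. In Tom+ and Tom- cells limited by stromal markers, the values were -0.19 and -0.27 for Ccl2, -0.17 and -0.21 for Ccl7, and 0.09 and 0.17 for Ccl11. The part of dissociation in the difference between the libraries was not tested.

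Ccl11, or eotaxin, draws eosinophils through CCR3. Ccl11 (ENSMUSG00000020676, chr11:82057823-82062955, plus strand) was at 1624 CPM (1614–1634) in Tom- versus 896 CPM (888–905) in Tom+ stromal cells, a log2 ratio of -0.86 (-0.87 to -0.84). It was at 105 CPM (101–108) in Tom- versus 34.9 CPM (30.1–40.3) in Tom+ mesothelial cells. Unlike Ccl2 and Ccl7, it was thus much lower in mesothelial than in stromal cells of either library. The difference was 15.5-fold in the Tom- and 25.7-fold in the Tom+ library. In these main values the library difference was present in both classes. The log2 ratio of Tom+ over Tom- in mesothelial cells was -1.58 (-1.80 to -1.37). Without the cells whose barcode was listed in both libraries, the log2 ratio of mesothelial over stromal cells in the Tom+ library was -5.84 instead of -4.68.

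The stromal share with Ccl11 hardly differed between libraries, while the number of copies per cell did. After thinning, 80.4% (79.2–81.5) of Tom- and 76.2% (74.7–77.7) of Tom+ stromal cells held at least 1 UMI. Cells with 10 to 29 UMIs made up 24.2% of Tom- and 13.8% of Tom+ stromal cells, and cells with 30 or more made up 5.48% and 0.891%. In mesothelial cells the thinned shares were 18.7% (16.9–20.5) and 9.20% (5.92–13.5), at deeper median UMIs than stromal cells before thinning. Most of the mesothelial cells with Ccl11 held 1 or 2 UMIs.

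**Figure D2:**
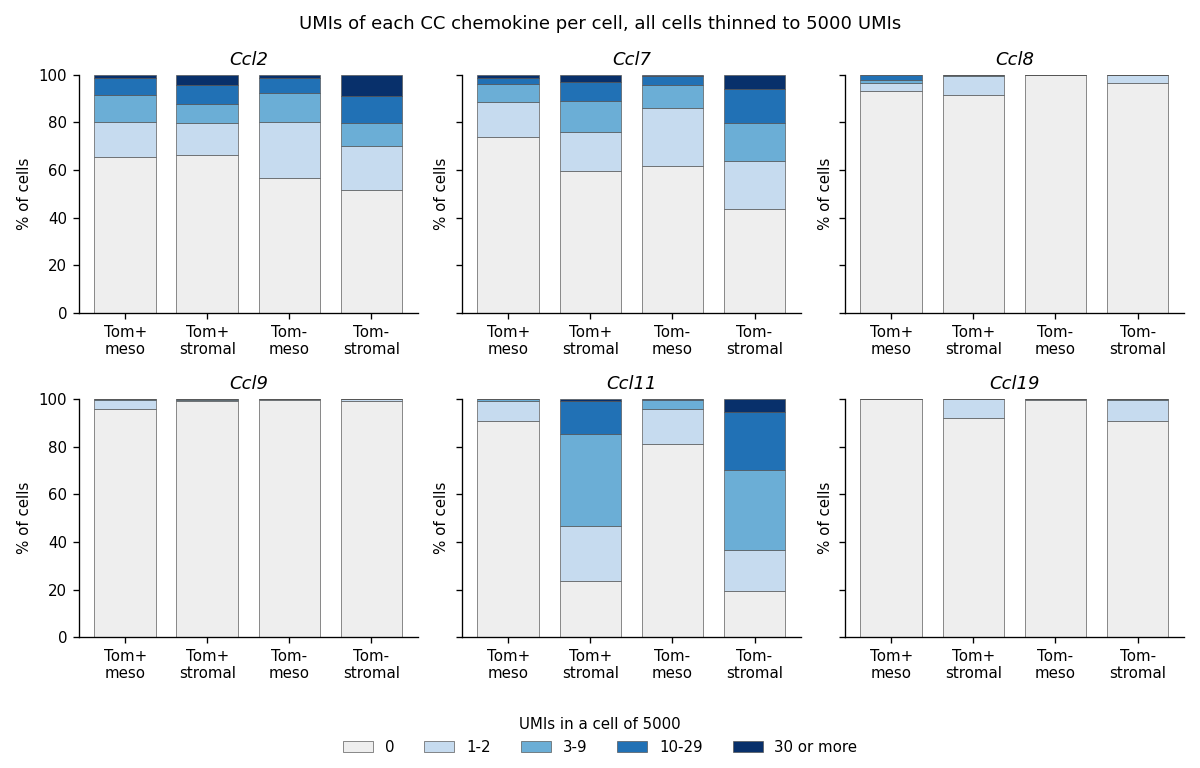
Share of cells (vertical axis, % of cells) that held 0, 1-2, 3-9, 10-29 or 30 or more UMIs of each CC chemokine after every cell was thinned to 5000 UMIs, in mesothelial (meso) and stromal cells of the Tom+ and Tom- libraries. Ccl11 was found in 80.4% of Tom- and 76.2% of Tom+ stromal cells, whereas Ccl8, Ccl9 and Ccl19 were absent from over 90% of the cells of each class and library.

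Ccl19 attracts dendritic cells and naive T cells through CCR7 and is typical of lymphoid stroma. Ccl19 (ENSMUSG00000071005, chr4:42754525-42756577, minus strand) was at 23.5 CPM (22.2–24.7) in Tom- versus 19.6 CPM (18.4–20.9) in Tom+ stromal cells, a log2 ratio of -0.26 (-0.38 to -0.14). It was at 1.33 CPM (0.962–1.79) in Tom- mesothelial cells, and no UMI was found in the 250 Tom+ mesothelial cells, where 3 counts would be a share of 1.20% of cells with a UMI and the exact 95% upper limit is 1.46%. Ccl19 was thus a stromal transcript in both libraries, 17.7-fold lower in mesothelial cells of the Tom- library. With a floor of 3 UMIs in the class put in place of 0, it was 34.9-fold lower in those of the Tom+ library. The exact 95% upper limit of that log2 ratio from the 0 counts was -4.82. The thinned shares of stromal cells were 9.39% (8.56–10.3) and 7.92% (6.999–8.92) for Tom- and Tom+, against 0.431% (0.186–0.848) of Tom- mesothelial cells. A second identifier with the symbol Ccl19, ENSMUSG00000094661 on a separate scaffold, held 0 UMIs in either library. Reads shared between such copies could have been left out in counting, so the level of Ccl19 is uncertain.

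Ccl8 is a chemoattractant that acts on CCR8 in mice, and Ccl9 is a ligand of CCR1 made mainly by myeloid cells. Both lie on chromosome 11. Ccl2, Ccl7, Ccl11 and Ccl8 stand within 81.2 kb of each other on the plus strand, with Ccl12 between Ccl11 and Ccl8, while Ccl9 stands 1456 kb further on the minus strand. Of the 6 genes, 3 matched the RefSeq promoter table (Ccl8, Ccl9 and Ccl19). Ccl8 and Ccl9 are the pair whose mesothelial level was higher in the Tom+ library. Without cells with at least 10 immune UMIs the intervals of the libraries overlapped. Ccl8 was then at 2.45 CPM (1.26–4.28) in Tom+ versus 1.18 CPM (0.834–1.62) in Tom- mesothelial cells. Ccl9 was at 1.22 CPM (0.449–2.66) versus 0.620 CPM (0.379–0.958). The 250 bases before the transcription start of either gene are shown with searched motifs in capitals (GRCm38.p6, sequences from RefSeq, 5′ to 3′ on the strand of the gene).
Ccl8, chr11:82114935-82115184, plus strand: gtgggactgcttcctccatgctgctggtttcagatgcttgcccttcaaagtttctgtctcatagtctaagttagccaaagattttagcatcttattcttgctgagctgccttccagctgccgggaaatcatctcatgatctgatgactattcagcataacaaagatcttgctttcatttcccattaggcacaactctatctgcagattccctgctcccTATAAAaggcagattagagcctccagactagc
Ccl9, chr11:83578637-83578886, minus strand: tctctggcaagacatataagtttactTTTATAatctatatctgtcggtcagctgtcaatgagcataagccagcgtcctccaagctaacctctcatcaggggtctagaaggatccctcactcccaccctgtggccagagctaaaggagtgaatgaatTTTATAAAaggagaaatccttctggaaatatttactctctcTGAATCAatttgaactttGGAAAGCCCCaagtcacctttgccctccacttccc
Searched on both strands were a TATA box (TATAAA), AP-1 (TGANTCA), NF-kB (GGG, any 2 letters, then TTTCC), C/EBP (TTNCGNAA), an interferon response element (GAAA, any 2 letters, then GAAA) and PU.1 (AGAGGAAGT). Ccl8 held a TATA box 32 bases before its start and none of the other motifs. Ccl9 held a TATA box 92 bases before its start, which overlaps a match on the other strand, a further match on the other strand at 224 bases, an AP-1 match at 53 bases and an NF-kB match on the other strand at 35 bases. Of the 32851 promoters in the table, 12.4% held a TATA box in the same 250 bases, 6.75% an AP-1 match and 1.41% an NF-kB match. The remaining motifs were held by 2.04% (C/EBP), 2.98% (interferon response element) and 0.798% (PU.1). These matches describe the letters only.

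Ccl8 (ENSMUSG00000009185, chr11:82115185-82116799) was at 40.1 CPM (38.3–41.8) in Tom+ versus 9.35 CPM (8.58–10.2) in Tom- stromal cells, a log2 ratio of 2.10 (1.96–2.24). In mesothelial cells it was at 116 CPM (107–126) in the Tom+ library versus 1.21 CPM (0.857–1.65) in the Tom- library. The mesothelial level was thus above the stromal level in the Tom+ library and below it in the Tom- library, with log2 ratios of 1.54 (1.41–1.67) and -2.95 (-3.46 to -2.49).

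A few cells with immune transcripts held most of these UMIs. In Tom+ mesothelial cells, 608 of the 620 Ccl8 UMIs were in the 16 cells with at least 10 UMIs over the 10 immune markers, and the remaining 234 cells held 12. Those 16 cells had a median of 26749 UMIs, of which 85 were from the 5 mesothelial genes and 67 from the immune markers, and 9 of them carried a barcode listed in both libraries. Scrublet, a doublet caller, marked none of the 16, and only 2 cells of the whole Tom+ library. Without such cells Ccl8 was at 2.45 CPM (1.26–4.28) in Tom+ mesothelial cells versus 19.7 CPM (18.4–20.9) in Tom+ stromal cells, so its mesothelial over stromal log2 ratio was -3.01. This alternative was chosen after the data were seen.

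In stromal cells a part of the Ccl8 difference remained without them. With at least 10 UMIs of stromal markers, under 10 of immune markers and under 5% of UMIs from B and plasma cell markers required, Ccl8 was at 21.5 CPM (20.2–22.9) in 3074 Tom+ versus 9.63 CPM (8.83–10.5) in 4691 Tom- cells, a log2 ratio of 1.16 (1.004–1.31). The highest cell among these held 19 UMIs in the Tom+ and 29 in the Tom- library, against 399 in a Tom+ stromal cell before the limits. Before them, 8.37% (7.42–9.39) of Tom+ and 3.25% (2.76–3.81) of Tom- stromal cells held Ccl8 after thinning, and 0.269% (0.0875–0.628) of Tom- mesothelial cells. The stromal difference therefore lay both in a few cells with very many copies and in a larger number of cells with 1 or 2.

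Ccl9 (ENSMUSG00000019122, chr11:83572919-83578636) was at 6.50 CPM (5.82–7.23) in Tom+ versus 4.30 CPM (3.78–4.87) in Tom- stromal cells. In mesothelial cells it was at 12.4 CPM (9.59–15.8) in the Tom+ versus 0.834 CPM (0.550–1.21) in the Tom- library. Most of this again came from few cells: the 47 Tom+ stromal cells with at least 10 immune UMIs held 238 of 332 Ccl9 UMIs, and the 16 such mesothelial cells held 60 of 66. Without them the stromal levels were 1.87 CPM (1.51–2.28) in the Tom+ versus 2.89 CPM (2.47–3.37) in the Tom- library, and the log2 ratio of Tom+ over Tom- was -0.63 rather than 0.59. The library with the higher stromal level of Ccl9 was therefore set by 47 Tom+ and 33 Tom- cells. Under 1% of the stromal cells of either library held Ccl9 after thinning.

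The immune markers themselves differed in the same direction as Ccl8. They summed to 656 CPM in Tom+ versus 35.0 CPM in Tom- mesothelial cells, with Lyz2 at 275 against 10.8 CPM and C1qa at 128 against 5.29 CPM. Cd3d, which marks T cells, was at 0 in Tom+ mesothelial cells. All 7 immune markers that reached a mean of 5 CPM in stromal cells were higher in the Tom+ library by at least 1.5-fold. Of the 9778 genes compared, 3.86% were higher by that size. Ptprc, C1qa and C1qb, at 3.44, 4.80 and 4.99 CPM in Tom- cells, reached that mean only through the Tom+ library, which favours a call. Below that mean were Adgre1 (6.81 in Tom+ versus 0.518 CPM in Tom- cells), Cd3e (1.84 versus 1.43 CPM) and Cd3d (1.04 versus 1.02 CPM).

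**Figure D3:**
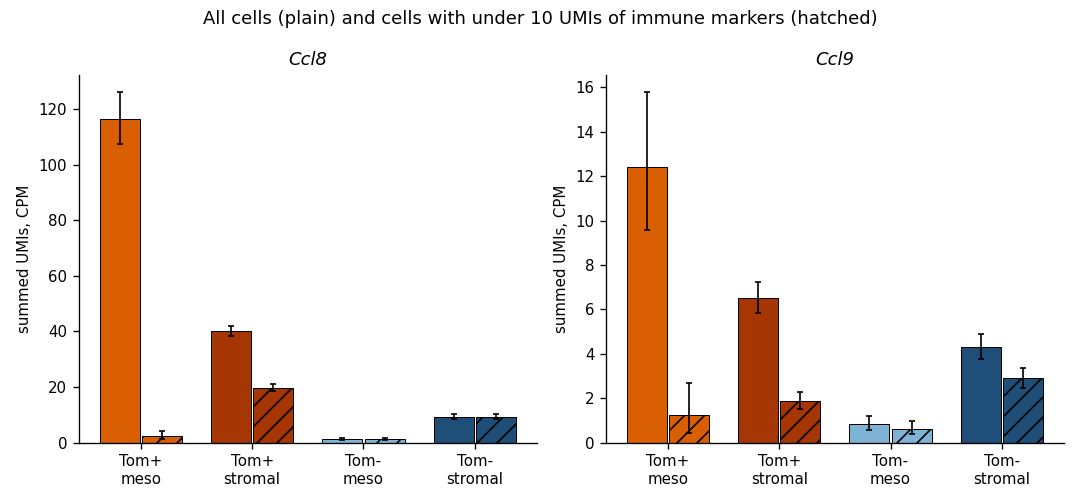
Ccl8 and Ccl9 in CPM (vertical axis, from 0) in all cells (plain bars) and in cells with under 10 UMIs over the 10 immune markers (hatched bars), for mesothelial (meso) and stromal cells of the Tom+ and Tom- libraries. Error bars are exact Poisson 95% intervals for counting error. Ccl8 in Tom+ mesothelial cells was at 116 CPM in all 250 cells and at 2.45 CPM in the 234 cells with under 10 immune UMIs.

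For Ccl2, Ccl7, Ccl11 and Ccl19 the same limits made little difference in stromal cells. Their log2 ratios of Tom+ over Tom- were -0.97 (-0.99 to -0.95), -1.02 (-1.04 to -0.997), -0.77 (-0.79 to -0.76) and -0.15 (-0.27 to -0.03) in the cells limited by stromal markers. The cells with at least 10 immune UMIs did hold Ccl2 and Ccl7 at high levels, 1935 CPM and 2327 CPM in the 47 Tom+ stromal cells, but these cells accounted for 3.47% and 4.93% of the stromal UMIs of these genes in that library.

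The stromal cells of both libraries were next grouped by Leiden clustering without any gene whose symbol starts with Ccl, which gave 16 clusters called here by their leading genes. The libraries differed in make-up. The cluster led by Rab3b, Chchd10 and Edn1 held 23.8% of Tom+ and 4.17% of Tom- stromal cells, whereas the cluster led by Vdr, Hsd11b1 and Thbd held 6.62% and 19.96%. With 1 library per group, a cluster mostly of 1 library may reflect that library.

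Ccl2 and Ccl7 were highest by far in the 27 cells led by Mcpt4, Tpsb2, Cma1 and Cpa3, which are mast cell proteases. There Ccl7 was at 23895 CPM (22646–25195) in 10 Tom- cells versus 19101 CPM (18332–19894) in 17 Tom+ cells, and Ccl2 at 13831 CPM (12885–14828) versus 11671 CPM (11072–12294). These cells held 6.80% of the Ccl7 UMIs of Tom+ stromal cells and 1.76% of those of Tom- stromal cells. Among the 9 clusters with at least 100 cells in each library, Ccl2 was highest in that led by Nptx2, Dmkn and Sfrp4, at 3390 CPM in Tom- versus 2425 CPM in Tom+ cells. It was low in those led by Car3, G0s2 and P2ry1 (341 versus 303 CPM) and by Pi15, Cpe and Pdlim3 (504 versus 303 CPM).

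Ccl11 followed another pattern. It was highest in the cluster led by Vdr, Hsd11b1 and Thbd, at 3387 CPM (3352–3421) in Tom- versus 2388 CPM (2330–2448) in Tom+ cells, and in that led by Aspn, Gsc and Scg3, at 2235 versus 1550 CPM. It was lowest among the same 9 clusters in that led by Pi15, Cpe and Pdlim3 (478 versus 309 CPM), where Ccl19 was at 46.8 CPM in Tom- versus 37.9 CPM in Tom+ cells. Ccl19 was also found in the cluster led by Aspn, Gsc and Scg3, at 57.0 versus 32.0 CPM, and was lowest among the 9 in the 2 clusters with Pi16, a marker of early progenitors, among their leading genes (4.47 to 5.77 CPM). Ccl11 was thus highest in the same cluster in both libraries. For Ccl19 the intervals of the Pi15 and Aspn clusters overlapped in either library.

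Ccl8 and Ccl9 were led by the 29 cells with Lyz2, C1qa and C1qb as leading genes. Ccl8 was at 2763 CPM (2599–2935) in the 23 Tom+ cells of this cluster and at 0 in the 6 Tom- cells, and Ccl9 was at 625 CPM (548–709) versus 180 CPM (103–293). These cells held 51.4% of Tom+ stromal Ccl8 UMIs and 71.7% of Tom+ stromal Ccl9 UMIs. In the cluster led by the interferon-induced genes Ifit1, Rsad2 and Ifit3, Ccl8 was at 79.6 CPM (54.5–112) in 24 Tom+ versus 27.9 CPM (17.7–41.8) in 66 Tom- cells. In the Tom- library, 41.8% of stromal Ccl9 UMIs were in the cluster led by Igkc, Ighm and Igha, immunoglobulin genes of plasma cells. The 62 Tom- cells of this cluster held 104 Ccl9 UMIs. The 54 Tom- stromal cells with at least 5% of UMIs from B and plasma cell markers held only 42. Most of the 104 thus lay in cells below that share. The 33 Tom- stromal cells with at least 10 immune UMIs held 83. How these groups of cells overlap was not tested.

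**Figure D4:**
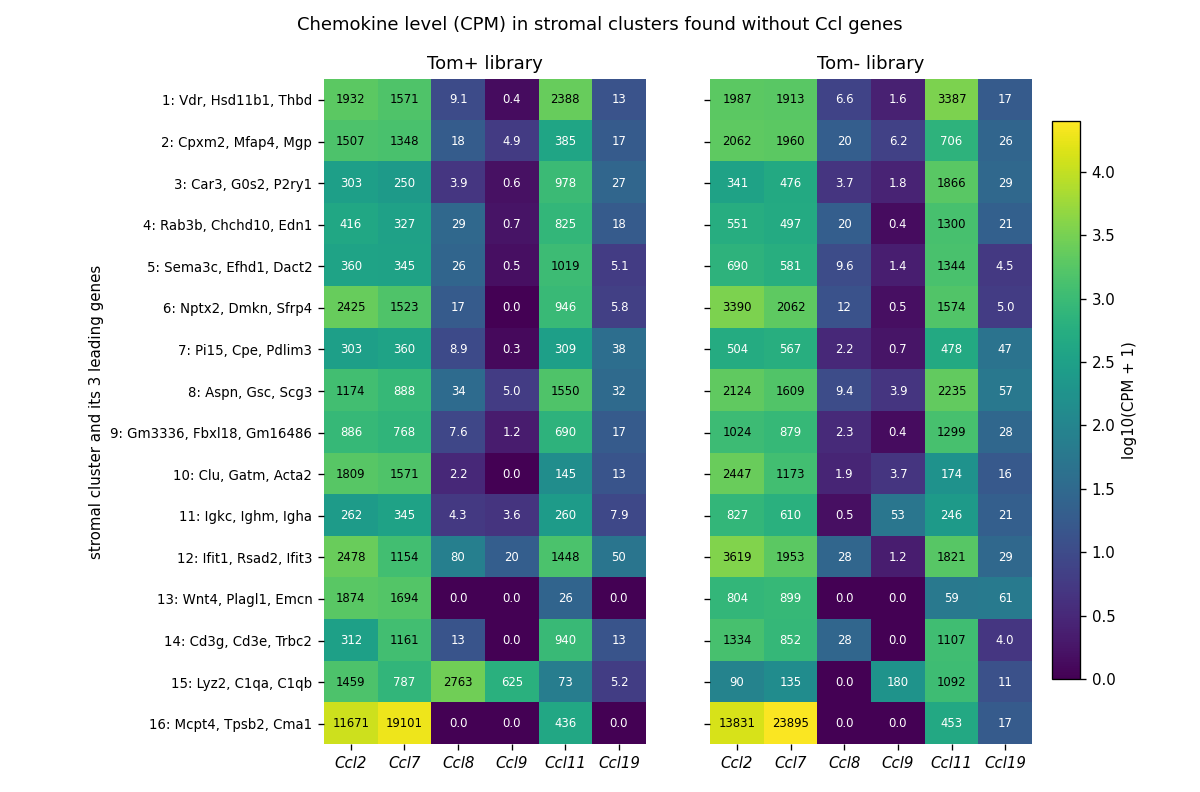
CPM of each CC chemokine (numbers in the cells, colour on a log10(CPM + 1) scale) in the 16 stromal clusters found without Ccl genes (rows, each with its 3 leading genes), for the Tom+ library on the left and the Tom- library on the right. Ccl2 and Ccl7 were highest in the cluster led by Mcpt4, Tpsb2 and Cma1, Ccl8 in the Tom+ cells led by Lyz2, C1qa and C1qb (2763 CPM), and Ccl11 in the cluster led by Vdr, Hsd11b1 and Thbd.

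The library difference was then read inside the 9 clusters with at least 100 cells in each library. These clusters come from the same libraries and are not replicates of them. Matching shares over all genes were not computed within clusters. Ccl2, Ccl7 and Ccl11 were lower in Tom+ cells in 9 of 9 clusters each, and by at least 1.5-fold in 3, 5 and 6 of them. The size varied, from -0.94 to -0.04 on the log2 scale for Ccl2 (median -0.45), from -0.93 to -0.20 for Ccl7 (median -0.60) and from -0.93 to -0.40 for Ccl11 (median -0.66). Every cluster was nearer to 0 than the value over all stromal cells for Ccl2 and Ccl7. With each of the 13 clusters of at least 20 cells per library weighted equally, the log2 ratios were -0.56 for Ccl2, -0.38 for Ccl7 and -0.56 for Ccl11, all within 1.5-fold. Those 13 include the clusters led by Igkc, Ighm and Igha and by Cd3g, Cd3e and Trbc2 (23 Tom+ and 21 Tom- cells), weighted like the large ones. For Ccl11 the median over the 9 larger clusters, -0.66, was past 1.5-fold. The difference of Ccl2 and Ccl7 between the libraries was thus smaller within clusters than over all stromal cells, whose cluster shares differed. Ccl2 in the cluster led by Vdr, Hsd11b1 and Thbd was at 1932 CPM in Tom+ versus 1987 CPM in Tom- cells, within 1.5-fold.

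Ccl8 was higher in Tom+ cells in 8 of the 9 clusters and by at least 1.5-fold in 4 of them, with log2 ratios from -0.15 to 2.001 (median 0.57). The Tom- side of these 4 held only 28, 22, 11 and 6 UMIs, and the highest ratio rested on the 6, so their sizes are imprecise. Ccl8 was at 33.6 CPM in Tom+ versus 9.43 CPM in Tom- cells led by Aspn, Gsc and Scg3, and at 25.9 versus 9.63 CPM in those led by Sema3c, Efhd1 and Dact2. Ccl19 was lower in Tom+ cells in 7 of the 9 clusters, from -0.83 to 0.22. Ccl9 was lower in 5 and higher in 3, with 0 Tom+ UMIs in the ninth, and its counts there were too few to read an order.

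**Figure D5:**
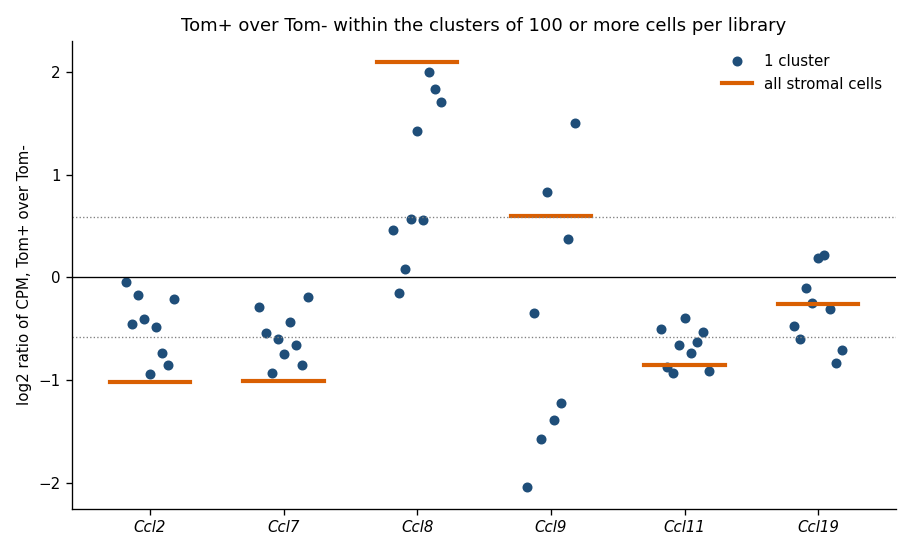
log2 ratio of CPM in Tom+ over Tom- cells (vertical axis) for each CC chemokine within the 9 stromal clusters of at least 100 cells per library (points, 1 per cluster) and over all stromal cells (orange lines). Dotted lines mark 1.5-fold. Ccl2, Ccl7 and Ccl11 lay below 0 in 9 of 9 clusters, and the points of Ccl2 and Ccl7 lay above the lines for all stromal cells.

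Within single cells, Ccl2 and Ccl7 were found together and Ccl11 largely without regard to Ccl2. The Pearson correlation of log-normalized UMIs of Ccl2 and Ccl7 was 0.56 over 3263 Tom+ and 0.52 over 4800 Tom- stromal cells, and 0.55 and 0.47 over 250 and 1887 mesothelial cells. For Ccl2 and Ccl11 it was 0.10 and 0.03 in stromal cells. These cells share a library and a preparation, and the values are descriptions. After thinning, Ccl7 was found in 70.1% (68.1–72.0) of Tom- stromal cells with Ccl2 and in 43.6% (41.6–45.6) of those without it. In Tom+ stromal cells these shares were 61.6% (58.5–64.5) and 29.5% (27.6–31.5). All 3 of Ccl2, Ccl7 and Ccl11 were found in 27.1% (25.9–28.5) of Tom- and 16.7% (15.4–18.0) of Tom+ stromal cells, whereas none of the 3 was found in 5.52% (4.87–6.22) and 12.8% (11.7–14.1).

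Among the 2844 genes that averaged 50 CPM or more in stromal cells, those whose pattern over cells was most like Ccl2, by the lower of the correlations in the 2 libraries, were Ccl7, Cxcl1 (r = 0.45 in Tom+ and 0.43 in Tom- cells) and Nfkb1 (0.43 and 0.45). Cxcl1 is a neutrophil chemoattractant and Nfkb1 encodes a subunit of NF-kB. The same genes stood with Ccl7: Ccl2, Cxcl1 (0.47 and 0.46) and Nfkb1 (0.41 and 0.44). For Ccl11 they were Col4a1 (0.49 and 0.49), a collagen of basement membranes, Dpep1 (0.44 and 0.50) and Col5a3 (0.46 and 0.43). Of these 3, the collagens form extracellular matrix and Dpep1 encodes a dipeptidase.

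The other 3 genes had few UMIs per cell and, apart from Ccl9 with Lyz2 in Tom+ cells, weak correlations. For Ccl9 the genes were Lyz2 (0.73 in Tom+ and 0.26 in Tom- cells), Srgn (0.20 and 0.23) and Cd74 (0.27 and 0.17), all of which leukocytes express. In cells limited by stromal markers they were instead Cxcl13 (0.18 and 0.13), Tmem176a (0.09 and 0.13) and Lcn2 (0.08 and 0.13). For Ccl8 they were B2m (0.18 and 0.11), Hexa (0.16 and 0.10) and Plac8 (0.09 and 0.12), and for Ccl19 they were Plpp1 (0.19 and 0.16), Agt (0.18 and 0.15) and Igfbp7 (0.14 and 0.15). The values for Ccl8 and Ccl19 are too weak to single out a gene.

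Among the other 17 CC chemokine symbols, 8 reached a mean of 5 CPM in a class of either library. Ccl27a, a ligand of CCR10, was 2.08-fold and 2.002-fold higher in mesothelial than in stromal cells of the Tom+ and Tom- libraries, at 24.6 against 11.9 CPM and 23.8 against 11.9 CPM. Ccl25, a ligand of CCR9, was between 6.12 and 8.04 CPM in the 4 groups of cells. These 2 were the ones spread over many cells, with Ccl27a in 538 Tom+ and 607 Tom- stromal cells. The remaining 6 were held by few cells: Ccl6, which lies next to Ccl9, was at 23.6 CPM in Tom+ versus 3.32 CPM in Tom- stromal cells and at 45.3 versus 1.45 CPM in mesothelial cells, and 96.3% of its Tom+ stromal UMIs were in the top 1% of cells. Ccl24 was at 16.9 CPM in Tom+ versus 0.804 CPM in Tom- mesothelial cells. Ccl3 and Ccl4 were at 13.9 and 22.9 CPM in Tom+ mesothelial cells and below 7 CPM elsewhere, with 119 of the 122 Ccl4 UMIs in 1 cell. Ccl5 was at 10.6 CPM over all Tom- versus 3.01 CPM over all Tom+ stromal cells, with its UMIs in 26 and 16 cells. Ccl21a was at 7.53 CPM over all Tom- stromal cells, with its UMIs in 11 of them. Ccl21a is listed under several identifiers, so its reads could be split.

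In stromal cells, 6 of the 17 other ligands reached a mean of 5 CPM. Of these, Ccl3 and Ccl6 were higher and Ccl5 was lower by at least 1.5-fold in the Tom+ library. Each was under 5 CPM in the library where it was lower, so it reached that mean only through the other library. Such a limit favours a call, and the number called is not a result about these ligands. Few stromal cells held them, 43 Tom+ and 21 Tom- cells for Ccl3, 77 and 52 for Ccl6, and 16 and 26 for Ccl5. Of all genes compared, 3.86% were higher and 3.25% were lower by that size. In cells limited by stromal markers each of these ligands averaged under 5 CPM. There Ccl6 was at 1.20 versus 0.703 CPM in Tom+ and Tom- cells, Ccl3 at 3.62 versus 1.51 CPM and Ccl5 at 1.22 versus 3.82 CPM. No classical CC chemokine receptor of the 10 listed reached 5 CPM in any class. Their sums were 3.60 CPM in Tom+ versus 3.25 CPM in Tom- stromal cells and 2.63 versus 1.51 CPM in mesothelial cells. The sorted cells thus held transcripts of ligands but hardly any of the receptors through which these signal.

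The atypical receptors were present. Ackr3, which mainly binds CXC chemokines, was at 561 CPM in Tom- versus 451 CPM in Tom+ stromal cells and at 331 versus 299 CPM in mesothelial cells. Ackr2, a scavenger of inflammatory CC chemokines, was at 23.2 CPM in Tom+ versus 13.9 CPM in Tom- stromal cells, a log2 ratio of 0.75 (0.61–0.88), and at 1.503 versus 1.14 CPM in mesothelial cells. Ackr1 was at 4.79 versus 6.79 CPM in Tom+ and Tom- stromal cells, and Ccrl2 between 11.4 and 16.0 CPM in the 4 groups of cells. Ackr2 was thus mainly a stromal transcript, and 1 of the 4 atypical receptors with a mean of 5 CPM was past 1.5-fold between libraries in stromal cells. Of the 9778 genes compared there, 3.86% were higher and 3.25% were lower in the Tom+ library by that size. In cells limited by stromal markers Ccrl2 was past 1.5-fold too, at 6.80 against 10.9 CPM, a log2 ratio of -0.68. Of the genes compared in those cells, 2.20% had a lower ratio. Of 2 enzymes that trim CC chemokines, Dpp4 was at 278 against 60.7 CPM in mesothelial and stromal cells of the Tom+ library and at 265 against 50.7 CPM in the Tom- library. Mmp2 went the other way, at 38.1 against 825 CPM and 42.0 against 553 CPM.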

How the data were processed

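Single-cell suspensions were made into 10x Genomics 3′ libraries, 1 from Tom+ and 1 from Tom- cells. The deposited files hold whole-number UMI counts per gene and barcode, which the authors made with Cell Ranger 3.0.2 on mm10 according to the submitters' processing notes, without normalization. The libraries held 61119807 and 96872394 UMIs in 5566 and 11838 barcodes.

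UMIs were summed per class and scaled to CPM (Python 3.11.15, numpy 2.4.6, scipy 1.17.1). Ratios of CPM carry exact conditional binomial intervals, and the computation was checked on simulated Poisson counts. That check does not cover UMIs that are clumped in few cells. Stromal clusters used 2000 variable genes, 30 components, 20 neighbours and Leiden resolution 0.8 (igraph 0.11.9), and leading genes had at least 50 CPM. Scrublet (scanpy 1.11.5) marked 2 Tom+ and 122 Tom- cells as doublets, which were kept in the main values. No group has replicates, so no test was made.

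Named genes were the 6 chemokines, other listed CC ligands, receptors and enzymes with a mean of at least 5 CPM in a class, and for each chemokine the 3 genes most correlated in both libraries. The members and lists were chosen with earlier results of these data known. Positions are from GENCODE vM21. Alternatives were other limits on cells, scaling, weights, thinning, shared barcodes, immune or immunoglobulin RNA, doublets and cluster weights.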

Additional observations from a re-analysis of the deposited data

Results flagged for a closer look

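The mesothelial over stromal log2 ratio of Ccl8 was 1.54 for Tom+ and -2.95 for Tom- cells, and that of Ccl9 was 0.93 and -2.37. The ratios pointed in opposite directions in the 2 libraries, and with 1 library per group the difference was not tested. In the Tom+ library 608 of the 620 mesothelial Ccl8 UMIs and 60 of the 66 mesothelial Ccl9 UMIs were in the 16 cells with at least 10 immune UMIs.

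Barcodes with 1000 or fewer detected genes that were not shared between the libraries numbered 214 in the Tom+ and 3056 in the Tom- library. They entered no comparison except in the setting with no limits on cells. Their level of Ccl7 in the Tom+ library was 796 CPM, above the 669 CPM of Tom+ stromal cells. In the Tom- library their levels of Ccl8 and Ccl9 were 72.4 and 87.7 CPM, above the 9.35 and 4.30 CPM of Tom- stromal cells. These differences were not tested.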

How the results depend on the processing

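No paired analysis was possible because each sorted group was a single library. The log2 ratios of Tom+ over Tom- in stromal cells kept their sign under 13 of 13 other settings for Ccl2 (-1.10 to -0.56), Ccl7 (-1.09 to -0.38), Ccl11 (-0.94 to -0.56), Ccl8 (0.73 to 2.33) and Ccl19 (-0.37 to -0.15), and under 10 of 13 for Ccl9. Ccl9 was at -1.01 with clusters weighted equally, -0.63 without cells with at least 10 immune UMIs and -0.46 with stromal cells chosen by stromal markers. Ccl8 in mesothelial over stromal Tom+ cells was at -2.54 without cells with at least 10 immune or B and plasma UMIs and -3.01 without those with at least 10 immune UMIs. The value of -2.54 rests on 77 mesothelial and 1494 stromal cells.

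The number of chemokines at least 1.5-fold higher in Tom+ stromal cells was 1 instead of 2 under 9 of the 13 other settings. Among them were a mitochondrial limit of 5%, no limits on cells, size factors and the mean over cells. No shared barcodes, equal cluster weights and stromal cells by markers also gave 1. The same held without cells with at least 10 immune or B and plasma UMIs, and without those with at least 10 immune UMIs. The number at least 1.5-fold lower was 1 instead of 3 with equal cluster weights, where the 1 was Ccl9 and Ccl2, Ccl7 and Ccl11 fell short. It was 4 without cells with at least 10 immune UMIs, where Ccl9 was added. In the Tom+ library the number at least 2-fold higher in mesothelial cells was 2 instead of 1 under the mitochondrial limit of 5%, class limits of 20 and 2 UMIs and stromal cells by markers. It was 0 with no limits on cells and without shared barcodes. It was also 0 without cells with at least 10 immune or B and plasma UMIs, and without those with at least 10 immune UMIs. Leaving out cells with at least 10 immune or B and plasma UMIs kept only 77 Tom+ mesothelial and 1494 Tom+ stromal cells. There the number at least 2-fold lower in Tom+ mesothelial cells was 6 instead of 3. In the Tom- library both numbers, 6 lower and 0 higher, held under all 12 settings. Shares before thinning placed 3 of the 6 chemokines highest in the same cluster as after thinning for Tom+ cells and 5 for Tom- cells. With a minimum of 1 CPM in place of 5, the shares of all genes past 1.5-fold between libraries were 6.91% higher and 4.57% lower, and past 2-fold between classes 16.2% and 12.3% in the Tom+ and 14.5% and 11.4% in the Tom- library. The settings without cells with at least 10 immune UMIs, without cells with at least 5% B and plasma UMIs, and with stromal cells by markers were chosen after seeing the data. The causes of these changes were not tested, except that settings that leave cells out differ only in those cells. Depth limits Ccl8, Ccl9 and Ccl19 in the small clusters, where levels rest on few UMIs.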

Other observations

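In the Tom+ library a tdTomato UMI was found in 553 of the 3144 stromal cells thinned to 5000 UMIs. Ccl2 was at 1203 CPM (1162 to 1244) in the cells with and 797 CPM (782 to 812) in the cells without a tdTomato UMI, and Ccl7 at 1220.2 CPM (1179 to 1262) and 640.2 CPM (627 to 654). Shares of cells were closer, at 37.6% (33.6 to 41.8) and 32.7% (30.9 to 34.6) for Ccl2. Ccl11 was at 837 CPM (803 to 872) with and 983 CPM (966 to 1001) without a tdTomato UMI, and Ccl8 at 14.8 CPM (10.6 to 20.1) and 50.4 CPM (46.6 to 54.4). In Tom- stromal cells, 287 with and 4260 without a tdTomato UMI, Ccl11 differed in the other direction, at 1937 CPM (1865 to 2010) and 1681 CPM (1664 to 1699). There Ccl2 was at 1672 CPM (1606 to 1740) and 1551 CPM (1535 to 1568), Ccl7 at 1650.2 CPM (1584 to 1718) and 1280 CPM (1265 to 1295), and Ccl8 at 8.36 CPM (4.32 to 14.6) and 8.97 CPM (7.74 to 10.3). In 163 Tom+ mesothelial cells with a tdTomato UMI Ccl8 was at 23.3 CPM (14.0 to 36.4), against 232 CPM (189 to 282) in the 87 without. Before thinning, 16 Tom+ mesothelial cells with at least 10 immune UMIs held 608 of the 620 Ccl8 UMIs of that class. The 47 such Tom+ stromal cells held 1057 of 2047. How these cells divide by tdTomato was not tested, and the intervals do not cover UMIs clumped in few cells. A Tom+ cell without a tdTomato UMI had still been sorted as Tom+.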
